A study of Homo sapiens with 10 samples.

Results

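The insulator protein gene CTCF and 8 genes of the cohesin complex, SMC1A, SMC3, RAD21, STAG1, STAG2, NIPBL, PDS5A and PDS5B, were followed through the differentiation of human embryonic stem cells (ESCs) into neuroectodermal cells (NECs). These 9 genes were chosen by name, among 31017 genes in the RNA-seq count table, and all 9 were among the 17564 genes with enough reads to be tested. The ESCs were the line H9 (WA09), an established pluripotent line, kept in Pluripro medium on Pluripro matrix. The NECs came from the same line by a published differentiation protocol and were collected on day 7. RNA-seq was done on 2 biological replicates of each cell type, and promoter capture Hi-C (PCHi-C), in which ligated fragment pairs with a promoter at one end are pulled out by hybridisation, was done on 2 biological replicates of each cell type. All cells came from 1 line, so differences between people were not sampled.

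Cohesin is a ring-shaped protein complex that holds sister chromatids together after replication and that extrudes loops of chromatin in interphase. SMC1A and SMC3 are its long coiled-coil ATPases, RAD21 is the kleisin that closes the ring, and STAG1 and STAG2 are alternative subunits that bind the kleisin. NIPBL loads cohesin and stimulates loop extrusion, while PDS5A and PDS5B bind the ring and take part in its release and in its maintenance on chromatin. CTCF is a zinc finger protein that binds a long DNA motif and stops extruding cohesin in an orientation-dependent way, which places loop anchors and the borders of topological domains.

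The promoters of these genes were read here both as sources of RNA and as ends of chromosomal contacts, and 3 of them are shown because a contact was called from their own bait in all 4 PCHi-C replicates. The sequences are from RefSeq promoter windows of build GRCh38.p14, matched base for base to GRCh37, the build of the interaction lists, and they end at the base before the gene start in the count table. The stretch of CTCF lies at chr16:67596179-67596309 on the plus strand and that of NIPBL at chr5:36876621-36876860 on the plus strand. In these, capitals mark CpG dinucleotides, of which the CTCF stretch holds 28 in 131 bases and the NIPBL stretch 26 in 240 bases.
CTCF: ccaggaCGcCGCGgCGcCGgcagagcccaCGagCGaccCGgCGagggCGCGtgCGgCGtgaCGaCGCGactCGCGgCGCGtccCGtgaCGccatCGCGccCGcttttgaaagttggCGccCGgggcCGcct
NIPBL: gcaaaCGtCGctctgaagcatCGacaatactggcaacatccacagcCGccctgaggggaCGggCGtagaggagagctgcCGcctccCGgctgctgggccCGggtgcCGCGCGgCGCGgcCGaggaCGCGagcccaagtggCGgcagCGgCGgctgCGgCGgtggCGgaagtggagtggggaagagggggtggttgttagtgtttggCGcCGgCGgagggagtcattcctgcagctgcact
The stretch of SMC3 lies at chr10:112327203-112327448 on the plus strand, and its capitals mark the site of HindIII, the enzyme that cut the genome for PCHi-C.
SMC3: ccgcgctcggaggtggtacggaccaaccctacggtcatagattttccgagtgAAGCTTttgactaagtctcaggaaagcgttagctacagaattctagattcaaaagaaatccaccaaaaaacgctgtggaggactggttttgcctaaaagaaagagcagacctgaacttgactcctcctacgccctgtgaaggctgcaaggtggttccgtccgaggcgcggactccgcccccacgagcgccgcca
The SMC3 promoter is thus cut by the assay, and the first 53 bases of the stretch belong to the fragment next to the bait. Of the 9 genes, 8 were found in the RefSeq table, with 11 windows of 300 bases. The whole windows held 16 to 46 CpG, with 46 in that of CTCF, 45 in those of PDS5A and PDS5B, 23 in that of SMC3 and 34, 17 and 16 in the 3 windows of STAG2, against a median of 14 over all 35116 windows.

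The 4 RNA-seq libraries held between 19234087 and 25356382 counts. Levels are given as CPM, a gene's share of the counts of its library, on library sizes scaled by the trimmed mean of M-values (TMM), and differences as log2 fold changes of NEC over ESC with their standard error (SE). A gene passed when edgeR's quasi-likelihood test gave it an adjusted p under 0.05. The cell types stood far apart at their markers: all 5 pluripotency genes fell (summed level 3705 to 3755 CPM in ESCs and 896 to 1269 in NECs) and all 5 neuroectoderm genes rose (4.65 to 6.41 CPM in ESCs and 295 to 367 in NECs). Among 5 neural crest markers, 3 rose, with a summed level of 19.9 to 21.0 CPM in ESCs and 39.3 to 123 CPM in NECs, and the NEC libraries therefore differed from each other in this list. Among 5 mesendoderm markers, 4 fell, and the summed level of all 5 was 29.3 to 83.9 CPM in ESCs and 2.51 to 3.18 CPM in NECs. The ESC libraries therefore differed from each other in this list. The part of these markers in the results was not tested. The ESC libraries shared a sequencing lane and the NEC libraries shared a different one, so lane and cell type cannot be told apart. In bulk RNA, fewer cells of a type and less RNA per cell cannot be told apart either.

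All 9 genes were well expressed in both cell types and none changed by much. RAD21 and NIPBL rose in NECs, CTCF and STAG2 fell, and SMC1A, SMC3, STAG1, PDS5A and PDS5B did not pass the test. The changes that passed lay between 0.27 and 0.38 on the log2 scale in either direction. Over all genes tested, 61.1% passed in either direction, 31.5% as higher and 29.7% as lower in NECs, so 4 of 9 is no more than the background. None of the 9 went past the fold threshold that the study used, an absolute log2 fold change of 1.5, which 21.0% of all genes tested and 7.65% of the genes in the same range of average expression passed together with the test. The median absolute log2 fold change of the 9 genes was 0.23, against 0.61 over all genes tested and 0.42 over the 3584 genes in that range, of which 65.8% passed the test on adjusted p alone. The largest of the 9 changes, that of STAG2, was larger than the absolute change of 34.2% of the genes tested, and the smallest, that of STAG1, was larger than that of 7.15%.

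**Figure D1:**
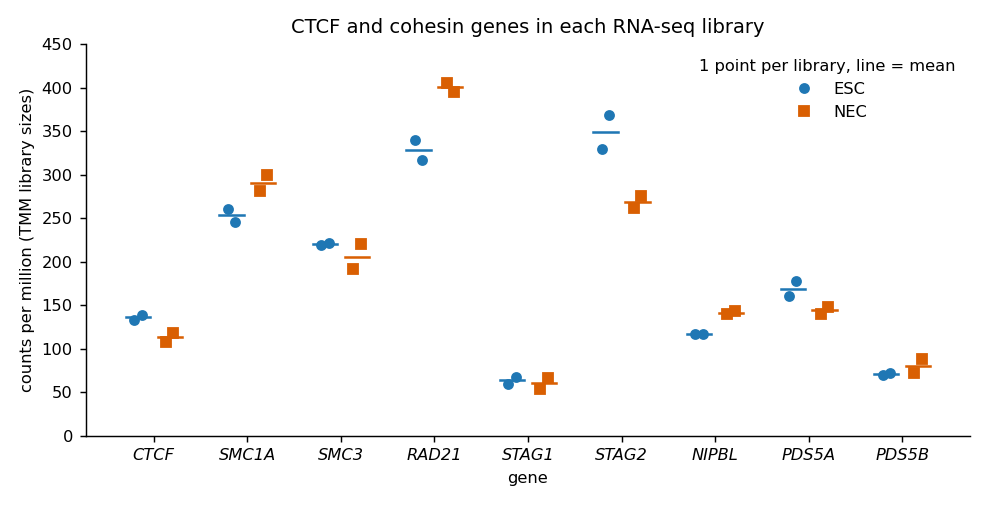
Level of each of the 9 genes (CPM on TMM library sizes, vertical axis starting at 0) in the 2 ESC libraries (circles) and the 2 NEC libraries (squares), with the mean of each cell type as a line. RAD21 and NIPBL lie higher and CTCF and STAG2 lower in both NEC libraries, and the points of SMC3, STAG1 and PDS5B overlap between the cell types.

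CTCF (chr16:67596310-67673086, plus strand) was at 133 and 139 CPM in the ESC libraries and at 108 and 118 CPM in the NEC libraries. Both NEC libraries lay below both ESC libraries. The log2 fold change was -0.27 (SE 0.09, adjusted p = 0.039), a fall to 0.83 of the ESC level. The change was -0.32 (SE 0.15) without ESC replicate 1, -0.24 (SE 0.15) without ESC replicate 2 and -0.20 (SE 0.09) without NEC replicate 1. The call was lost in each of these fits, which leave 1 library in a cell type. Without NEC replicate 2 the change was -0.34 (SE 0.09). With library sizes that were not rescaled by TMM the change was -0.21 (adjusted p = 0.078).

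Among the genes of the ring, RAD21 (chr8:117858174-117887105, minus strand) was at 340 and 316 CPM in ESCs and at 406 and 395 CPM in NECs. Both NEC libraries lay above both ESC libraries, and the log2 fold change was 0.29 (SE 0.09, adjusted p = 0.036). Without ESC replicate 1 the change was 0.32 (SE 0.17) and without ESC replicate 2 it was 0.23 (SE 0.17). The call was lost in both fits, which leave 1 ESC library. The count table does not separate strands, and RAD21 overlaps UTP23 and the antisense gene RAD21-AS1 on the opposite strand, which had 532 to 767 and 53 to 76 counts per library against 6411 to 9733 for RAD21. SMC1A (chrX:53401070-53449677, minus strand), its partner ATPase gene, was at 261 and 246 CPM in ESCs and at 281 and 300 CPM in NECs. The cell types did not overlap, but the change of 0.20 (SE 0.09) had an adjusted p of 0.11 and did not pass. It passed with unscaled library sizes (0.26, adjusted p = 0.044) and without NEC replicate 1 (0.25, adjusted p = 0.0498). SMC3 (chr10:112327449-112364394, plus strand) was at 219 and 222 CPM in ESCs and at 192 and 220 CPM in NECs. Its cell types overlapped, because NEC replicate 2 lay between the ESC libraries, and the change was -0.10 (SE 0.10, adjusted p = 0.42). Of the 3 ring genes 1 was therefore past the test, and the negative sign of SMC3, with an SE as large as its change, was not settled.

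The paralogous subunits STAG1 and STAG2 had different values. STAG2 (chrX:123094062-123556514, plus strand) was at 330 and 368 CPM in ESCs and at 262 and 276 CPM in NECs. Both NEC libraries lay below both ESC libraries, and STAG2 had the largest change of the 9 genes, -0.38 (SE 0.10, adjusted p = 0.016). Without ESC replicate 2, the higher of the ESC libraries, the change was -0.30 and its adjusted p 0.16. The span of STAG2 in the count table also covers part of ODZ1 on the opposite strand, which had 116 and 120 counts in ESCs and 246 and 253 in NECs, against 5593 to 9099 for STAG2. STAG1 (chr3:136055077-136471220, minus strand) was at 59.0 and 68.0 CPM in ESCs and at 54.1 and 66.7 CPM in NECs. Its libraries overlapped between the cell types and the change was -0.07 (SE 0.13, adjusted p = 0.65). It overlaps PCCB on the opposite strand, but the spans share only chr3:136055077-136056738. Over its whole length PCCB had 1597 to 2116 counts per library, more than STAG1 (1114 to 1682) in every library. Unstranded reads of the shared part could belong to either gene, also in the STAG1 counts of the ratios below.

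NIPBL (chr5:36876861-37066515, plus strand), the loader, was at 116 and 117 CPM in ESCs and at 140 and 143 CPM in NECs. Both NEC libraries lay above both ESC libraries, with the smallest spread within a cell type, relative to the mean, of the 9 genes. The log2 fold change was 0.28 (SE 0.08, adjusted p = 0.024). Without ESC replicate 1 the change was 0.25 (adjusted p = 0.19), and without ESC replicate 2 it was 0.27 (adjusted p = 0.16).

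PDS5A (chr4:39824483-39979576, minus strand) was at 160 and 177 CPM in ESCs and at 140 and 148 CPM in NECs. The NEC libraries lay below the ESC libraries, but the change of -0.23 (SE 0.09) had an adjusted p of 0.069 and did not pass. PDS5B (chr13:33160564-33352157, plus strand) was at 70.3 and 72.5 CPM in ESCs and at 72.1 and 87.6 CPM in NECs. Its cell types overlapped and the change was 0.16 (SE 0.11, adjusted p = 0.26). Without NEC replicate 1 the change was 0.30 and passed (adjusted p = 0.040), and without NEC replicate 2 it was 0.01 (adjusted p = 0.93). In all, the libraries of the cell types did not overlap for 6 of the 9 genes, against 83.8% of all genes tested.

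The balance between paralogs was then read within each library, where it needs no scaling between libraries. The log2 ratio of STAG1 to STAG2 counts was -2.48 and -2.44 in ESCs and -2.27 and -2.05 in NECs. STAG1 thus had 15.2% and 15.6% of the reads of the pair in ESCs and 17.1% and 19.5% in NECs. Both NEC libraries lay above both ESC libraries, by 0.30 on the log2 scale between the means. The log2 ratio of PDS5A to PDS5B fell, from 1.19 and 1.29 in ESCs to 0.96 and 0.75 in NECs. PDS5A had 69.5% and 71.0% of the reads of its pair in ESCs and 66.1% and 62.7% in NECs. In each pair the paralog with more reads, STAG2 or PDS5A, thus had a lower share in NECs than in ESCs. Both differences had a two-sided p of 0.33 in the exact permutation test, the smallest that 2 against 2 libraries can give, so neither could pass at this number of replicates. Per kb of the union of exons, STAG1 stood at 0.365 and 0.377 times the level of STAG2 in ESCs and at 0.422 and 0.493 times in NECs. PDS5A stood at 2.47 and 2.64 times the level of PDS5B in ESCs and at 2.10 and 1.82 times in NECs. These relative levels depend on the length used. Per kb of the longest transcript STAG1 stood at 0.203 and 0.210 times STAG2 in ESCs and at 0.235 and 0.275 times in NECs. On that length PDS5A stood at 2.39 and 2.56 times PDS5B in ESCs and at 2.04 and 1.76 times in NECs.

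**Figure D2:**
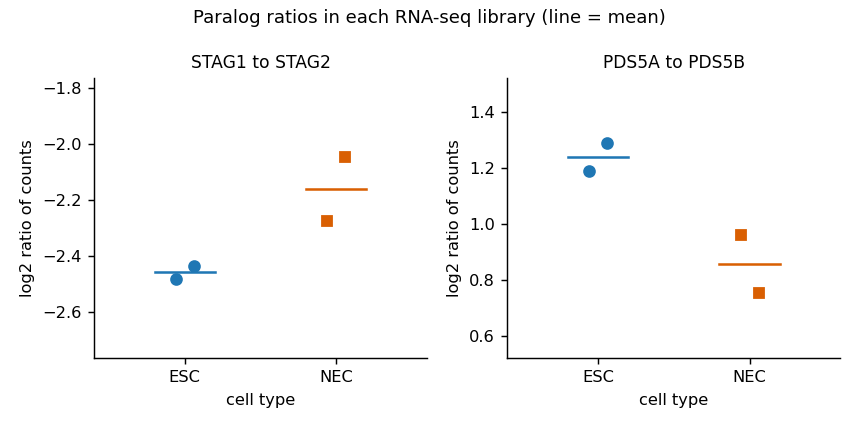
Log2 ratio of the read counts of STAG1 to STAG2 (left) and of PDS5A to PDS5B (right) in each RNA-seq library, with the mean of the 2 libraries of a cell type as a line and vertical axes that do not start at 0. The NEC points lie above the ESC points on the left and below them on the right, with exact p = 0.33 for each.

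Levels were compared between genes per length, first as CPM per kb over the union of all annotated exons of a gene. The annotation is newer than the gene set used for counting, so these levels depend on it. In ESCs, SMC1A (23.4 ± 1.0, SD, n = 2), RAD21 (22.8 ± 1.1) and STAG2 (21.8 ± 1.7) were highest and their libraries overlapped. SMC3 (14.2 ± 0.1), PDS5A (13.8 ± 1.0) and CTCF (13.5 ± 0.4) followed. PDS5A overlapped both of the others, while both SMC3 libraries lay above both CTCF libraries. NIPBL (9.32 ± 0.03) and STAG1 (8.10 ± 0.81) came next, and PDS5B was lowest with 5.41 ± 0.12. In NECs, RAD21 (27.8 ± 0.5) and SMC1A (26.8 ± 1.2) overlapped at the top, STAG2 stood below both at 16.8 ± 0.6, and PDS5B was again lowest with 6.06 ± 0.83. NIPBL (11.3 ± 0.2) and CTCF (11.2 ± 0.7), which did not overlap in ESCs, overlapped in NECs. The order depends on the length used. Per kb of the longest transcript STAG2 was first in ESCs with 50.7 ± 3.9, ahead of RAD21 with 39.4 ± 2.0 and SMC3 with 33.4 ± 0.2, and SMC1A was the fifth with 25.5 ± 1.1.

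The other genes of the pathway were taken from lists chosen by function. Of 10 cohesin regulators, 3 rose, 3 fell and 4 did not pass, with a median log2 fold change of -0.01. Over all genes tested the median was 0.01 and 61.1% passed, and that share is the background of the lists below as well. PTTG1, the securin that holds separase in check, rose by 0.65 (SE 0.12, adjusted p = 0.0035), and HDAC8, which deacetylates SMC3, rose by 0.59 (SE 0.12, adjusted p = 0.0057). MAU2, the partner of NIPBL in the loader, was at 52.8 and 54.8 CPM in ESCs and 68.7 and 68.2 CPM in NECs, and rose by 0.35 (SE 0.09, adjusted p = 0.012), so both loader genes were higher in NECs. ESCO1, an acetyltransferase of SMC3, was at 52.4 and 50.04 CPM in ESCs and 32.9 and 34.2 CPM in NECs, and fell by 0.61 (SE 0.09, adjusted p = 0.0018). CDCA5, the gene of sororin, which protects cohesive cohesin, fell by 0.37 (SE 0.09, adjusted p = 0.011), and WAPAL, the release factor, by 0.29 (SE 0.09, adjusted p = 0.031). Without ESC replicate 2 the calls of CDCA5 (adjusted p = 0.11), MAU2 (0.067) and WAPAL (0.22) were lost, as were MAU2 (0.12) and WAPAL (0.051) without ESC replicate 1, and WAPAL without NEC replicate 1 (0.085) and with unscaled library sizes (0.059). The list thus held genes of opposite roles among those that rose and among those that fell.

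The germline paralogs were low. SMC1B had 2 to 4 counts per library, RAD21L1 1 to 6 and CTCFL 2 to 10, and none of these was tested. STAG3, the meiotic paralog of STAG1 and STAG2, was at 12.98 and 13.55 CPM in ESCs and 19.2 and 16.6 CPM in NECs and rose by 0.43 (SE 0.14, adjusted p = 0.036). This call was lost in DESeq2's test (adjusted p = 0.094), without ESC replicate 1 (0.16), without ESC replicate 2 (0.11) and without NEC replicate 1 (0.11). REC8, the meiotic kleisin, was at 2.49 and 2.99 CPM in ESCs and 1.54 and 2.23 CPM in NECs (-0.54, SE 0.30, adjusted p = 0.17).

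The related SMC complexes were mixed in the same way. Of 8 condensin genes, 2 rose (NCAPD2 by 0.39 and NCAPH2 by 0.27), 2 fell (SMC2 by 0.32 and NCAPD3 by 0.26) and 4 did not pass, with a median of 0.18. NCAPH2 did not pass in DESeq2's test (adjusted p = 0.078), SMC2 and NCAPD3 did not with unscaled library sizes (0.068 and 0.085), and each of these 4 calls was lost without ESC replicate 1 (adjusted p 0.067 to 0.15) and without ESC replicate 2 (0.10 to 0.26). Without NEC replicate 1 NCAPH2, SMC2 and NCAPD3 were lost too (0.096 to 0.12). Of 6 genes of the SMC5/6 complex, which acts in genome repair, NSMCE1 (0.83) and NSMCE4A (0.35) rose, SMC6 fell by 0.53, and 3 did not pass. NSMCE4A was lost without ESC replicate 1 (adjusted p = 0.17). Of 6 other factors of nuclear architecture, the looping cofactor LDB1 rose by 0.91, from 72.9 and 77.2 CPM in ESCs to 150 and 133 CPM in NECs. In the same list YY1 fell by 0.55, from 185 and 185 CPM to 127 and 125 CPM, ZNF143 fell by 0.51 and TOP2B by 0.29, and 2 did not pass. TOP2B was lost with unscaled library sizes (adjusted p = 0.060), without ESC replicate 1 (0.15) and without ESC replicate 2 (0.17). LDB1, YY1 and ZNF143 each had a larger absolute change than any of the 9 CTCF and cohesin genes.

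Genes of the cell cycle are given beside these, because cohesin and condensin genes are used in dividing cells. Of 10 such genes, TOP2A rose by 0.73, MCM5 fell by 1.004, BUB1 by 0.75, CCNA2 by 0.36, 1 more fell, and 5 did not pass. The summed level of the list was 2839 to 2853 CPM in ESCs and 2621 to 2935 CPM in NECs, so the cell types overlapped. CCNA2 was lost without ESC replicate 2 (adjusted p = 0.11). The part of this list in the changes of the cohesin genes was not tested. The summed level of the 9 CTCF and cohesin genes overlapped too, with 1689 to 1726 CPM in ESCs and 1655 to 1753 CPM in NECs.

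**Figure D3:**
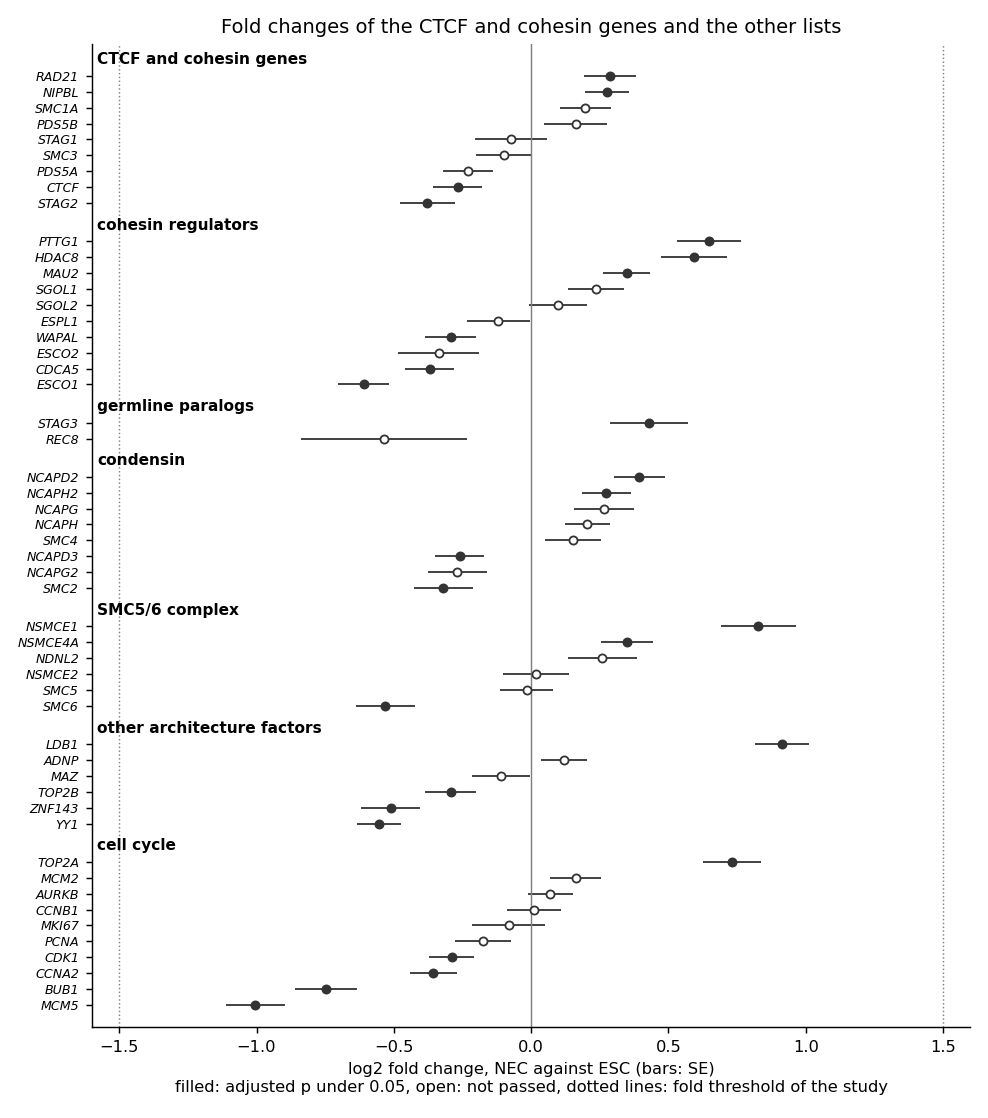
Log2 fold change of NEC over ESC (horizontal axis, bars are SE) for the 9 CTCF and cohesin genes and for the tested genes of 6 other lists, with filled points for an adjusted p under 0.05 in edgeR's test and dotted lines at the fold threshold of the study, 1.5 in either direction. The 9 genes at the top lie between -0.38 and 0.29, inside the range of LDB1 at 0.91 and MCM5 at -1.004, and no gene reaches a dotted line.

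PCHi-C was then used to ask what each of the 9 promoters contacts. A promoter lies in a HindIII fragment that was captured, called the bait, and the fragment that a call joins to it is a promoter-interacting region (PIR). The CHiCAGO pipeline scored each pair by minus the log of its p-value, weighted by distance, and the lists hold calls with a score of at least 12, for each replicate alone and for each cell type with its replicates pooled (the merged list). Since the lists hold no read numbers, the depth behind a score is unknown and a pair that is missing from a list may lie just under the threshold. Each of the 9 genes had its start in the count table in a bait of its own, of 1813 to 9072 bases. The RefSeq windows of STAG2 with 17 and 16 CpG lay outside the STAG2 bait. The bait of SMC1A also held the start of RIBC1, that of RAD21 the start of RAD21-AS1 and that of NIPBL the start of CTD-2653M23.2, and their contacts cannot be told apart.

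The number of PIRs in the merged lists ran from none to 16. STAG1 had the most there, 12 in ESCs and 16 in NECs, followed in ESCs by CTCF with 10 and STAG2 with 8. This order was not that of every list, since CTCF had more than STAG1 in both ESC replicates (11 and 9) and in NEC replicate 1 (9). At a score of at least 15 in ESCs, CTCF had 7 and STAG1 had 3, and with the baits of every annotated transcript start CTCF had 16 and STAG1 12. The other promoters had 0 to 4 in ESCs, near the median of 3 (quartiles 1 and 6) over the 18038 baits that hold a gene start. In NECs these promoters had 1 to 5, except SMC1A with 7, although its NEC replicates had only 3 and 1. RAD21 had no PIR in the ESC merged list and 1 in that of NECs, at a score of 12.51, but each replicate of either cell type had 2 or 3. Only 9.20% of the promoter baits had more PIRs than STAG1 in ESCs and 5.34% in NECs. The ESC replicates of STAG1 had 5 and 6 PIRs and its NEC replicates 7 and 9, the only one of the 9 promoters whose replicates did not overlap between the cell types, against 26.1% of promoter baits. The replicates of SMC3 had 12 and 4 PIRs in ESCs and those of NIPBL 10 and 2, so numbers differed more within a cell type than between the means for these promoters.

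**Figure D4:**
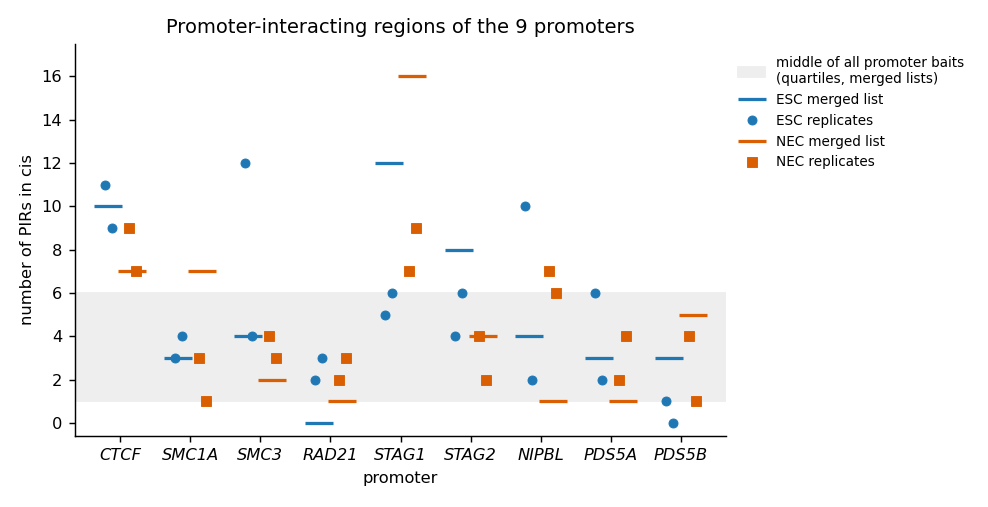
Number of PIRs on the same chromosome (vertical axis) for each of the 9 promoters in the merged list of each cell type (dashes), the 2 ESC replicates (circles) and the 2 NEC replicates (squares), with the quartiles of all promoter baits, 1 and 6, as a grey band. CTCF and STAG1 lie at or above the band's upper edge in most lists, and RAD21 has 0 and 1 in the merged lists.

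Over the 9 promoters the merged lists held 69 distinct PIRs. Of these, 22 (31.9%) were in the lists of both cell types, against 28.9% for all promoter baits, and 5 (7.25%) were called in all 4 replicates, against 5.22%. PIRs that were baits themselves numbered 24 (34.8%), against 29.8%. These shares lay near the background, and they leaned on CTCF, since without it 23.7% of 59 PIRs were baits and 3.39% were called in all 4 replicates.

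The CTCF promoter contacted a run of neighbouring gene starts on chromosome 16. Of its 10 ESC PIRs, 8 were called in both ESC replicates. The PIRs called in all 4 replicates held the starts of FAM65A, 32.3 kb upstream (merged score 19.95 in ESCs and 19.10 in NECs), of RLTPR, 83.6 kb downstream (28.46 and 19.55), and of PSKH1, 329 kb downstream (14.58 and 13.84). The highest score was at the fragment that holds the starts of ACD and PARD6A, 95.7 kb downstream, with 40.07 in the ESC merged list and 25.41 and 25.74 in the ESC replicates. That contact was not in the NEC merged list or in NEC replicate 1, but NEC replicate 2 had it at 21.84, and from the ACD and PARD6A bait it was in both merged lists (12.57 in ESCs and 12.25 in NECs). The highest score of the NEC merged list, 19.91, was at the start of C16orf48 and C16orf86, 109 kb downstream. NEC replicate 1 had that contact at 18.85 and NEC replicate 2 did not have it. All 7 NEC PIRs of CTCF were also ESC PIRs, but only 3 of the 7 were called in both NEC replicates.

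SMC3 had 1 contact called in all 4 replicates, with the fragment that holds the start of SMNDC1, a splicing factor gene, 264 kb upstream. Its score was 21.41 in the ESC merged list and 30.66 in that of NECs, and 21.58, 16.96, 20.94 and 28.21 in ESC replicates 1 and 2 and NEC replicates 1 and 2. From the SMNDC1 bait the same pair scored 15.19 in ESCs and 22.44 in NECs. NIPBL likewise had 1 contact in all 4 replicates, 150 kb upstream at the start of CTD-2353F22.1, with 23.57 in ESCs and 19.94 in NECs. In NECs it was the only PIR of NIPBL in the merged list, although the NEC replicates had 7 and 6.

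The contacts of STAG1 lay mostly downstream, at a median distance of 511 kb in ESCs and 556 kb in NECs. None was called from its bait in all 4 replicates. The highest score in ESCs was 18.57, at 468 kb in an exon of PCCB, and it was not in the NEC merged list. The highest in NECs was 22.11, at 667 kb in an exon of PPP2R3A, which scored 13.83 in ESCs. From the other side, the baits of NCK1 (17.58 in ESCs and 27.59 in NECs, at 116 kb) and of PCCB (13.94 and 18.88, at 505 kb) called the STAG1 fragment in all 4 replicates, and that of MSL2 scored 13.96 and 22.78.

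For STAG2 the highest PIR in both merged lists was the fragment with the start of XIAP-AS1 in an intron of XIAP, 86.9 kb upstream (16.76 in ESCs and 14.12 in NECs). The bait with the start of XIAP itself, an inhibitor of apoptosis, contacted STAG2 at 102 kb, with 15.91 in ESCs and 12.09 in NECs. SMC1A had its highest score in both lists 107 kb downstream in an intron of IQSEC2 (13.14 in ESCs and 15.69 in NECs). Of the replicates, only NEC replicate 1 had that pair (12.95). For SMC1A, 1 of 9 merged PIRs was in both lists, and none was called in both replicates of a cell type. PDS5A had its highest ESC score, 15.50, at the start of CHRNA9, 354 kb upstream, which was not in the NEC list, and its only PIR in the NEC merged list was at the start of N4BP2, 78.2 kb upstream (13.37 in ESCs and 15.22 in NECs). The NEC replicates of PDS5A had 2 and 4 PIRs, the highest of them 16.74 at 507 kb in NEC replicate 2. The highest ESC score of PDS5B, 13, lay 356 kb downstream outside annotated genes, in a pair that no replicate list held. Its highest NEC score, 17.45, lay 953 kb downstream, also outside genes, and that pair scored 12.25 in the ESC merged list. RAD21 was contacted by the bait with the starts of EIF3H and UTP23, 112 kb away, in both NEC replicates (12.29 and 18.27) and in neither ESC replicate. With 2 replicates a cell type and calls at a threshold, no test was made of these differences.

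**Figure D5:**
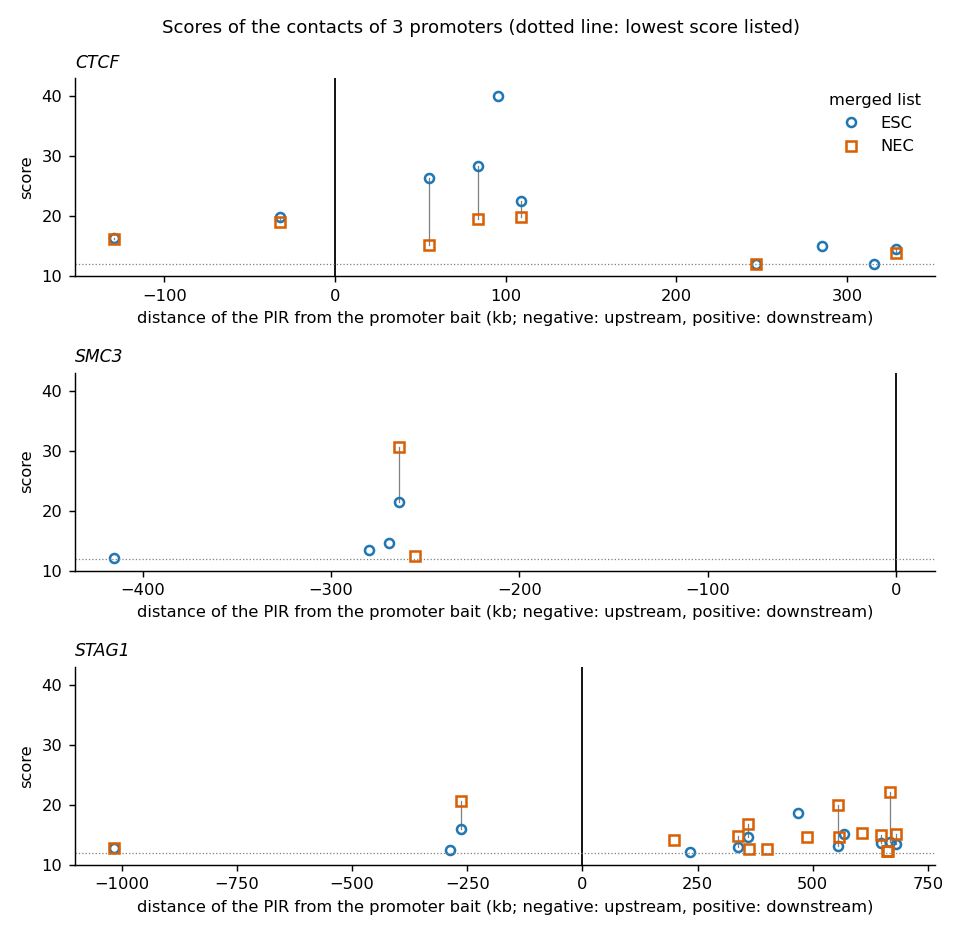
Score of each PIR of the CTCF, SMC3 and STAG1 promoters in the merged lists of ESCs (circles) and NECs (squares) against its distance from the bait in kb, with negative values upstream of the gene, grey lines joining the values of a PIR in both lists and a dotted line at the lowest score listed, 12. CTCF has its highest scores up to 109 kb downstream, SMC3 a single pair of high scores 264 kb upstream, and STAG1 many scores of at most 22.11 over both sides.

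The letters CCACNAGGG, a core part of the CTCF motif in which N is any base, were searched on both strands of the bait and PIR sequences in GRCh37, as the only motif searched. They were found in 9 of the 69 PIRs of these promoters (13%), against 16.2% of all 78567 merged PIRs, and in 1 of the 9 baits, that of STAG1, against 24.3% of promoter baits. The PIRs and baits vary in length, with a median of 6829 bases for the 69 PIRs and 4909 for all. The median of the 9 baits was 4779 bases, against 6920.5 for all promoter baits. Matches per 10 kb were 0.22 in the 69 PIRs against 0.34 in all, and 0.23 in the 9 baits against 0.39. In the 11 RefSeq windows of the 8 genes that had one no match was found, and 1.46% of all windows had one. Among the 5 PIRs called in all 4 replicates from the genes' own baits, 1 held the letters, that of CTCF with RLTPR, with 2 matches on opposite strands. They are shown with the matched letters in capitals, each on its own strand. The first lies at chr16:67680747-67680777 on the minus strand in an intron of CARMIL2, the current name of RLTPR, and the second at chr16:67681001-67681031 on the plus strand, over an exon of CARMIL2.
Minus strand: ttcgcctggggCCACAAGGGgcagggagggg
Plus strand: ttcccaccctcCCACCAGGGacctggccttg
A match describes letters and is not a bound site, and no binding data for CTCF or cohesin were analysed here.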

How the data were processed

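The authors trimmed RNA-seq reads with trim galore, aligned them to GRCh37 with TopHat2 2.0.8b (Bowtie 1.0.0 is also in the submitters' processing notes), and counted them per gene in Seqmonk on an Ensembl gene set without regard to strand. The deposited counts are whole numbers with no normalization. For PCHi-C, the authors mapped reads to GRCh37, removed duplicates and scored pairs of HindIII fragments with CHiCAGO, and the deposited score lists hold pairs of at least 12. Of the 158504 fragments listed, 158504 had the HindIII site at both ends in GRCh37. Depth per RNA-seq library was 19234087 and 25356382 counts in ESCs and 20793224 and 24323762 in NECs.

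Counts were analysed with edgeR 4.0.16 in R 4.3.3 (filterByExpr with a minimum count of 10, TMM, quasi-likelihood test, prior count 0.125, Benjamini-Hochberg adjustment over all 17564 genes tested). The SE is the log2 fold change divided by the square root of F. DESeq2 1.42.0, which the authors used, was an alternative, as were other scalings, filters, a replicate block and leaving out libraries. Interaction lists were read in Python 3.11.15 with pandas 2.3.3 and numpy 2.4.6, sequences with pysam 0.24.0, and plots made in matplotlib 3.10.9. Only contacts within a chromosome were counted, distances run between fragment midpoints, and a PIR was shared when the fragment was the same. Exon lengths and places came from a GENCODE annotation lifted to GRCh37, newer than the Ensembl set the authors counted on.

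The 9 genes and the other lists were chosen with earlier results of these data known. All 9 genes were named, of the other lists at most the 4 with the largest absolute change among those that passed, plus the germline paralogs, and of the PIRs those with the highest merged score per promoter and cell type and those called in all 4 replicates. MAU2 and WAPAL, other PIRs that the text names, the contacts of STAG1, STAG2 and RAD21 called from other baits, and the values of SMC1A and NIPBL set beside other genes, were picked after their values were seen. Conventional Hi-C, with 1 sample of each cell type, was not analysed here. Replicates are biological replicates by their labels, and p-values measure the spread between them.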

Additional observations from a re-analysis of the deposited data

How the results depend on the processing

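DESeq2's test and DESeq2's size factors in edgeR each called 2 genes higher and 2 lower, as did the filters on low counts. Library size alone, which moved the median of all genes from 0.01 to 0.07, called 3 higher and 1 lower. The fold threshold of 1.5 left 0 and 0 of the 9 genes, and 0 and 0 of the other lists. Leaving out 1 library gave 0 to 4 genes higher and 0 to 2 lower, and in the other lists 5 to 10 higher (10 with all libraries) and 6 to 16 lower (13). No member had an unadjusted p under 0.05 without ESC replicate 2. Of the alternatives, 3 turned a direction, all of genes that did not pass: SMC3 to 0.0012 without NEC replicate 1, and STAG1 to 0.028 without ESC replicate 2 and 0.074 without NEC replicate 1. Without 1 library SMC3 ran from -0.21 to 0.0012 and STAG1 from -0.24 to 0.074. The STAG1 to STAG2 difference ran from 0.19 to 0.41 and that of PDS5A to PDS5B from -0.49 to -0.28 without 1 library. At a score of at least 15 the 9 promoters had 15 PIRs in ESCs (47 at 12), 16 in NECs (44) and 8 shared (22). Without pairs of baits they had 25 in ESCs and 10 shared. Single replicates shared 10 to 17, and gave 36 to 54 PIRs in ESCs and 36 to 42 in NECs. The correlation across 17564 genes between the deviations of ESC replicate 1 and NEC replicate 1 was 0.07. With 2 libraries a group this cannot show whether replicates of the same number were paired. With the replicate number as a block, 2 genes were higher and 2 lower, and within replicate numbers 1 and 2 the PDS5A to PDS5B difference was -0.23 and -0.54. With 2 libraries a group SMC1A and PDS5A did not pass the test (adjusted p 0.11 and 0.069). This shows neither that their levels changed nor that they were equal.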
